A study of Arabidopsis thaliana with 8 samples.

Results

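NAC transcription factors are a large plant family, named after NAM, ATAF and CUC, whose members bind DNA through a conserved N-terminal NAC domain and regulate transcription through a variable C-terminal part. Some respond to stress, abscisic acid or leaf ageing, others build xylem, phloem, root cap or organ boundaries, and a membrane-tethered class is held at membranes until cleavage releases the factor into the nucleus. The genes described here are the rows of the count tables whose symbol is NAC or ANAC followed by a number, or is ATAF1, ATAF2, CUC1 to CUC3, VND1 to VND7, NST1, SMB or NTL9. The rule found 91 genes of 33028 in the tables. It uses names only and no measured value.

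The libraries were made from whole Arabidopsis thaliana seedlings of the Col-0 accession, 14 days after germination per the labels (the methods of the study give a younger age), grown on agar in short days without any treatment. There were 4 groups of 2 libraries: HRE1α OX and HRE1β OX, which overexpress a splice variant each of the low-oxygen response factor HRE1 (ERF73, AT1G72360), AtRH17 OX, which is labelled as an overexpressor of an RNA helicase, and WT. The HRE1α OX plants came from an earlier study, the HRE1β OX plants were homozygous transformants with the coding sequence only, selected by RT-PCR, and the sources used here give neither the promoter of these constructs nor the origin of AtRH17 OX. HRE1 had 169 and 195 CPM (counts scaled to an equal total in every library) in HRE1α OX, 33.9 and 34.3 in libraries labelled HRE1β OX, 43.4 and 35.7 in AtRH17 OX, and 49.8 and 38.1 in WT. It was thus higher in HRE1α OX (log2 fold change 2.05 ± 0.116 (SE), edgeR adjusted p = 2.06e-10) and slightly lower in libraries labelled HRE1β OX (-0.37 ± 0.117, edgeR adjusted p = 0.0263). The lower value does not show the rise in HRE1 that the HRE1β label implies. Since sequencing was from the 3′ end, whether a coding sequence without its own 3′ end would be counted was not tested. No row used here carries the name RH17, so that label was not checked.

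Each library held 25657217 to 30606058 counts, and replicates of a group correlated at r = 0.990 to 0.993 across genes, which are not independent replicates. Sequencing started near the 3′ end of each transcript, so that a transcript gives about the same number of counts whatever its length, and CPM were not divided by gene length. Nothing in the labels says that replicates are separate cultures, so the p-values below measure the spread between samples that may be technical. With 2 libraries in each group, the spread was estimated over all 4 groups in 1 fit. Leaf mesophyll markers summed to 22600 to 23600 CPM in HRE1α OX, 25100 to 26500 in libraries labelled HRE1β OX, 27400 to 28400 in AtRH17 OX, and 18300 to 20700 in WT, and 3, 6 and 6 of the 6 markers were called higher in these lines. Root markers summed to 3940 to 4600 CPM in AtRH17 OX against 2060 to 2280 in WT, where 3 of 7 were called higher and the median log2 fold change was 0.10, with 4 above and 3 below 0. Seed storage and late seed markers summed to 100 and 28.6 CPM in libraries labelled HRE1β OX, and to 0.308 to 0.995 CPM in the other 6 libraries, with 5 to 8 of the 11 at 0 in each of these. The part of these shifts in the NAC values was not tested, and in whole seedlings fewer cells of a type and less RNA per cell cannot be told apart.

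Of the 91 NAC genes, 68 passed the filter on low counts and were tested, and 23 were not. Between 72 and 77 of them had a count in a given library, and together they took 0.0629 to 0.0743% of its counts. Those not tested had at most 9 counts in any library, and 9 had none in any library, which allows up to 0.0972 to 0.122 CPM (3 counts) in each. NAC012 (also NST3) and NAC066 (also NST2), which switch on secondary walls, were among those at 0. The tested genes had mean levels of 0.255 to 73.0 CPM over the 8 libraries, with a median of 3.09 CPM, against a median of 9.16 CPM over all genes tested. The highest level was that of NAC083 (also VNI2, AT5G13180, chromosome 5, 4196256 to 4197940), an inhibitor of the vessel regulator VND7, at 73.0 CPM. NAC102 (AT5G63790), which is known for a part in germination under low oxygen, averaged 58.4 CPM, and NAC6 (also ORE1 or NAC092, AT5G39610), a driver of age-dependent leaf senescence, averaged 43.0 CPM.

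Few NAC genes changed in HRE1α OX, and many more were called in libraries labelled HRE1β OX and in AtRH17 OX, most of them higher. In HRE1α OX against WT, 1 NAC gene was higher and 1 lower at an edgeR adjusted p under 0.05, while 1.57% of all genes tested were called higher and 1.80% lower. In libraries labelled HRE1β OX, 11 were higher and 4 lower, which is 16.2% and 5.88% of the 68 tested, beside 11.2% and 11.6% of all genes. In AtRH17 OX, 12 were higher and 6 lower, 17.6% and 8.82% of those tested, beside 15.3% and 15.5% of all genes. Past 2-fold as well, 0 NAC genes were higher and 0 lower in HRE1α OX (background 0.243% and 0.252%), 4 and 0 in libraries labelled HRE1β OX (3.24% and 1.65%), and 4 and 3 in AtRH17 OX (4.27% and 2.44%). At the adjusted p alone, the shares called higher thus lay near the background. Those called lower lay below it in libraries labelled HRE1β OX and AtRH17 OX, with no test of that difference. Past 2-fold as well, 4 higher is 5.88% of those tested in each of these lines, and 3 lower in AtRH17 OX is 4.41%. These shares lay above the background on few genes, which was not tested either. The median log2 fold change of the NAC genes was -0.05, 0.11 and 0.23 in the lines as listed, beside -0.01, 0.00 and -0.01 over all genes. At an unadjusted edgeR p under 0.05 and 2-fold, 1 was higher and 1 lower in HRE1α OX and 1 lower in libraries labelled HRE1β OX, and DESeq2 called 0 in each of these. The 3 comparisons share the same WT libraries. Of the calls, 1 of 2 in HRE1α OX, 6 of 15 in libraries labelled HRE1β OX and 11 of 18 in AtRH17 OX were kept whichever library was left out, and the others are named with their genes below.

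**Figure D1:**
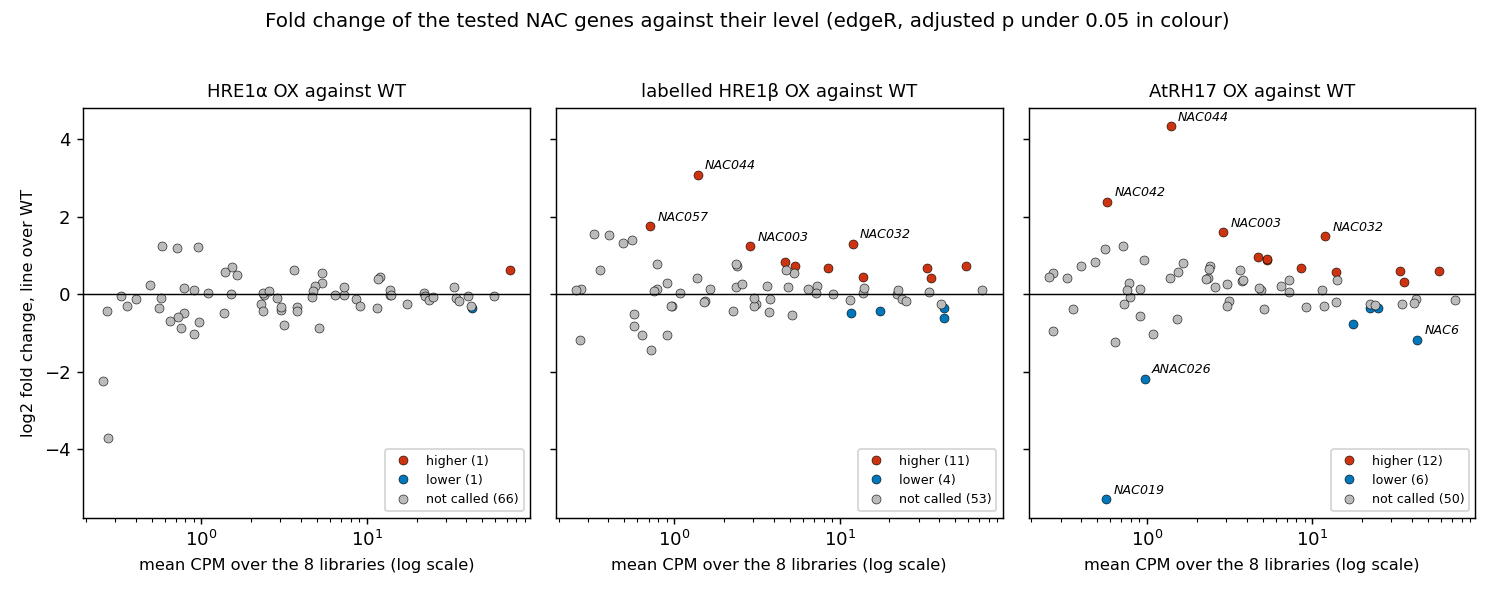
Log2 fold change (line over WT, vertical axis) of the 68 tested NAC genes against their mean CPM over 8 libraries (horizontal axis, log scale), 1 panel a line, with called genes in colour and those past 2-fold named. HRE1α OX has 2 coloured points, libraries labelled HRE1β OX 15 and AtRH17 OX 18; the lowest point, NAC019 at -5.28, rests on 1 count in AtRH17 OX and its size depends on the fit.

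NAC044 had the largest rise among the NAC genes. Together with NAC085 it acts downstream of the NAC factor SOG1 in the DNA damage response, where it holds the cell cycle before mitosis. NAC044 (AT3G01600, chromosome 3, 229075 to 231517) had 1.59 and 1.46 CPM in libraries labelled HRE1β OX, 4.09 and 3.13 CPM in AtRH17 OX, 0.344 and 0.180 CPM in HRE1α OX, and 0.213 and 0.137 CPM in WT. In counts these are 43 and 45, 116 and 77, 9 and 5, and 6 and 4. Every library labelled HRE1β OX or AtRH17 OX lay above every HRE1α OX and WT library, and HRE1α OX overlapped with WT. Against WT the log2 fold change was 3.09 ± 0.545 in libraries labelled HRE1β OX (edgeR adjusted p = 6.86e-05), 4.34 ± 0.525 in AtRH17 OX (1.24e-07) and 0.57 ± 0.680 in HRE1α OX (0.787). AtRH17 OX was also above libraries labelled HRE1β OX by 1.24 ± 0.402 (edgeR adjusted p = 0.0355), a call that was lost when any of these 4 libraries was left out (adjusted p up to 0.275). NAC085 was not tested for lack of counts, and SOG1 itself, whose symbol the naming rule does not take, was not called in any line (log2 fold changes -0.12, -0.04 and -0.34 in HRE1α OX, libraries labelled HRE1β OX and AtRH17 OX).

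The 250 bases before the NAC044 start are shown because SOG1 is known to bind CTT followed by any 7 bases and AAG, and the mitochondrial stress factors NAC13 and NAC017 to bind CTTG followed by any 5 bases and CAAG, and both patterns match here at the same place, 65 to 53 bases before the start. The match is in capitals in the forward strand of chr3:228825-229074 (TAIR10.1, from RefSeq):
NAC044 promoter: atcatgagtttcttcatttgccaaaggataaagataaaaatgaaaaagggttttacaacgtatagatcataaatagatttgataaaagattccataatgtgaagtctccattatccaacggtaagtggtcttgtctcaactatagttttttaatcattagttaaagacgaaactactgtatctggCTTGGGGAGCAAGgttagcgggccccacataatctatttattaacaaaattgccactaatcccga
The pattern with CTTG is a special case of the first, so that a match to it always counts for both. Searched on both strands from 250 bases before to 50 bases after the start, the first pattern occurred in 10 of 64 tested NAC promoters (15.6%) and in 11.3% of 22086 promoters of tested genes. The second occurred in 2 of 64 (NAC044 and NAC045, 3.12%) and in 0.711% of all. A match is a description of the letters and not a binding site.

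Other genes of the DNA damage response, a list of 12 chosen after the NAC044 values were seen, were called in part. In AtRH17 OX 4 of 12 were higher and 0 lower, in libraries labelled HRE1β OX 3 were higher and 1 lower, and in HRE1α OX none was called by edgeR or DESeq2 (4 had an unadjusted edgeR p under 0.05). DESeq2 called 2 of them in AtRH17 OX and 3 in libraries labelled HRE1β OX. The medians of the list were 0.74, 0.21 and -0.10 on the log2 scale. Over all genes edgeR called 15.3% higher and 15.5% lower in AtRH17 OX, and 11.2% and 11.6% in libraries labelled HRE1β OX. In HRE1α OX these shares were 1.57% and 1.80%, and 12 genes are too few to read no call against them. No test of the list was made. TSO2, a ribonucleotide reductase subunit that supplies DNA precursors, rose by 1.26 ± 0.111 in libraries labelled HRE1β OX and 0.99 ± 0.111 in AtRH17 OX, and BRCA1 by 1.97 ± 0.396 and 1.07 ± 0.410 in these lines. SMR7, a cell cycle inhibitor induced by SOG1, was not called in any line (-0.72 and 0.14 in libraries labelled HRE1β OX and AtRH17 OX), and CYCB1;1, a mitotic cyclin, was lower in libraries labelled HRE1β OX (-0.55 ± 0.188, edgeR adjusted p = 0.0331).

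**Figure D2:**
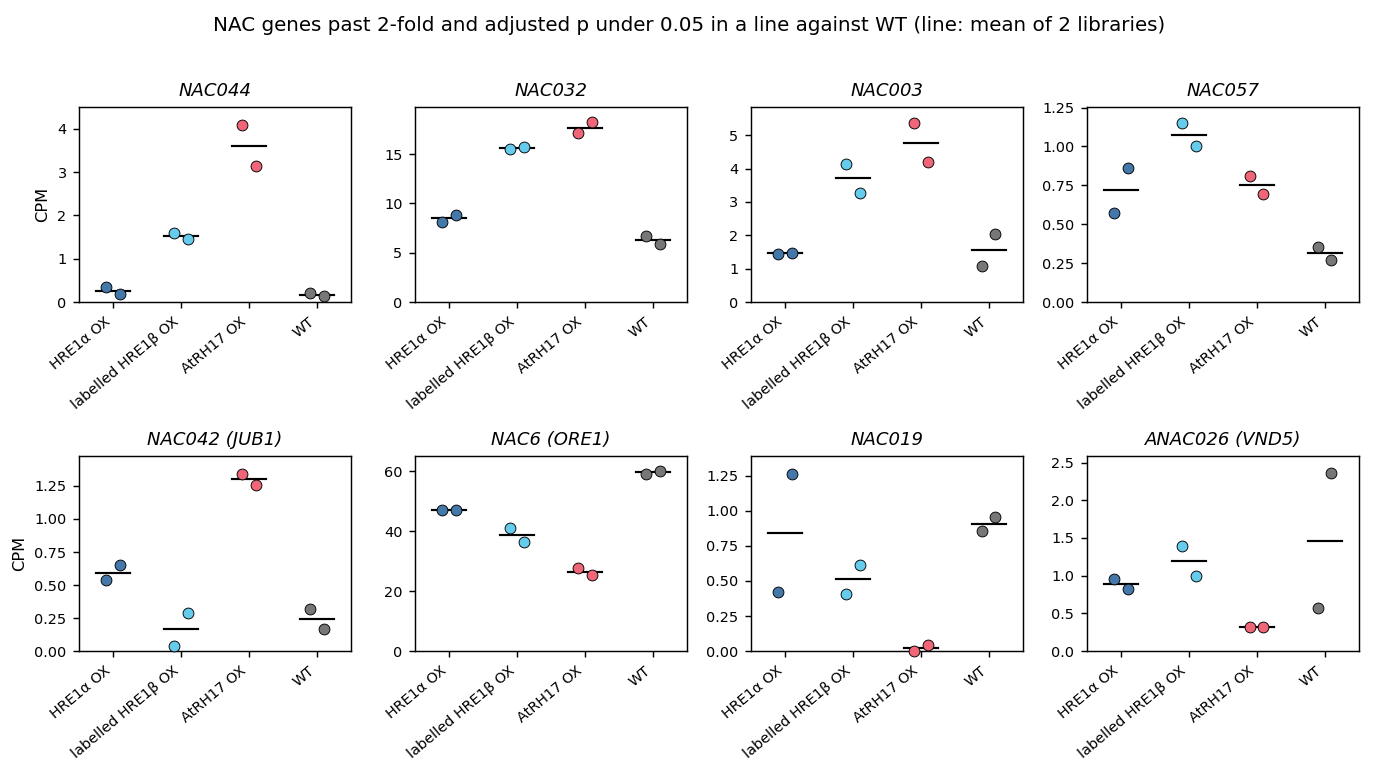
CPM per library (points) and group mean (line) of the 8 NAC genes past 2-fold with an adjusted p under 0.05 in a line against WT, with HRE1α OX, libraries labelled HRE1β OX, AtRH17 OX and WT from left to right. NAC044 is near 0 in HRE1α OX and WT and reaches 4.09 CPM in AtRH17 OX; NAC6 steps down over the lines to 25.4 CPM in AtRH17 OX against 60.3 CPM in WT; NAC019 is at 0 and 0.0407 CPM in AtRH17 OX; the 2 WT libraries of ANAC026 lie far apart.

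The ATAF subfamily, the group of stress factors that is made up of ATAF1, ATAF2, NAC032 and NAC102, was higher as a whole in libraries labelled HRE1β OX and in AtRH17 OX. It was singled out after the values were seen. All 4 of its genes were called higher in these lines, with medians of 0.72 and 0.59 on the log2 scale. Over all genes 11.2% were higher in libraries labelled HRE1β OX and 15.3% in AtRH17 OX. In HRE1α OX none of the 4 was called by edgeR or DESeq2 (median 0.07, 1 with an unadjusted edgeR p under 0.05). There 1.57% of all genes were higher and 1.80% lower, and 4 genes are too few to read against such shares. No test of the group was made. NAC032 (AT1G77450, chromosome 1, 29099839 to 29101759), which responds to abscisic acid and many stresses, had 15.5 and 15.7 CPM in libraries labelled HRE1β OX, 17.1 and 18.2 CPM in AtRH17 OX, 8.13 and 8.83 CPM in HRE1α OX, and 6.65 and 5.88 CPM in WT. Its replicates lay close together and no line overlapped with WT. The log2 fold change was 1.31 ± 0.156 in libraries labelled HRE1β OX (edgeR adjusted p = 1.37e-07) and 1.50 ± 0.156 in AtRH17 OX (7.9e-09). In HRE1α OX it was 0.44 ± 0.161 and was not called (edgeR adjusted p = 0.16).

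NAC102 (chromosome 5, 25526509 to 25528281) had 75.6 and 76.1 CPM in libraries labelled HRE1β OX, 67.4 and 69.3 CPM in AtRH17 OX, 45.7 and 42.7 CPM in HRE1α OX, and 48.9 and 41.8 CPM in WT. The first 2 lines lay above WT in every library and HRE1α OX overlapped with it. The log2 fold change was 0.74 ± 0.0945 in libraries labelled HRE1β OX (edgeR adjusted p = 4.98e-07) and 0.59 ± 0.0947 in AtRH17 OX (1.21e-05). ATAF1 (AT1G01720), a regulator of abscisic acid synthesis and senescence, had 43.5 and 39.4 CPM in libraries labelled HRE1β OX, 38.4 and 38.9 CPM in AtRH17 OX, 28.8 and 29.6 CPM in HRE1α OX, and 26.6 and 24.8 CPM in WT. It was called higher by 0.69 ± 0.105 in libraries labelled HRE1β OX and 0.59 ± 0.106 in AtRH17 OX. ATAF2 (AT5G08790), which acts in wounding and defence, had 41.1 and 45.5 CPM in libraries labelled HRE1β OX, 37.9 and 41.8 CPM in AtRH17 OX, 29.1 and 27.8 CPM in HRE1α OX, and 29.9 and 34.5 CPM in WT. Its rises, 0.43 ± 0.107 and 0.31 ± 0.108, were smaller. The call of ATAF2 was lost without replicate 2 of libraries labelled HRE1β OX (adjusted p up to 0.068) and, in AtRH17 OX, without its replicate 2 or WT replicate 1 (up to 0.203) or with only these 2 groups fitted. NAC102 shares 85 bases with AT5G63780 on the opposite strand (277 to 521 counts, 0.59 in AtRH17 OX), and ATAF2 shares 158 bases with AT5G08780 (294 to 470 counts, 0.32 in AtRH17 OX). The use of strand in counting is not given in the sources used here, so how reads were divided between these pairs is uncertain.

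**Figure D3:**
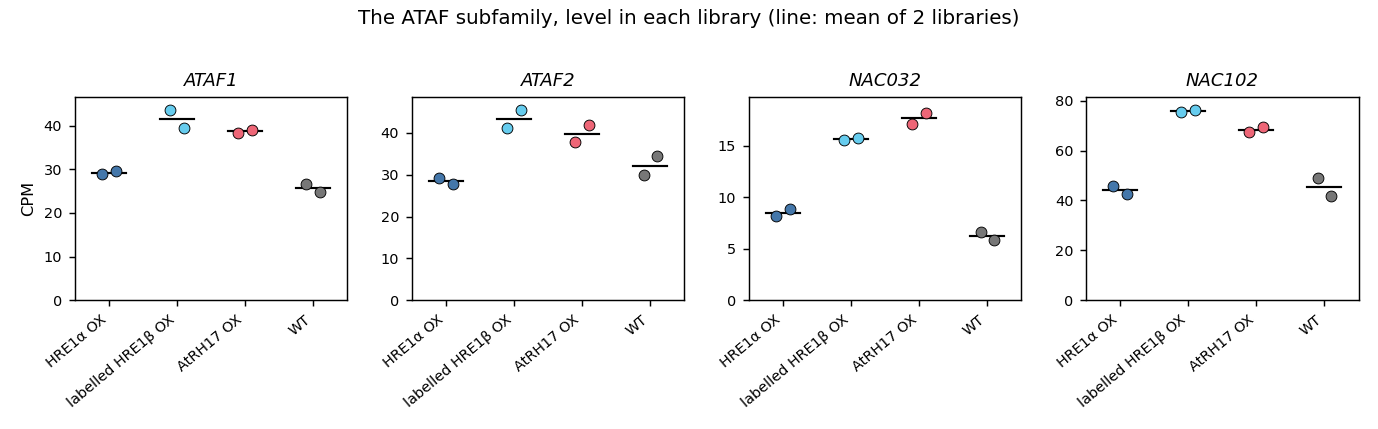
CPM per library (points) and group mean (line) of ATAF1, ATAF2, NAC032 and NAC102 in HRE1α OX, libraries labelled HRE1β OX, AtRH17 OX and WT, each axis from 0. In each panel libraries labelled HRE1β OX and AtRH17 OX lie above both WT libraries, and NAC032 has the widest gap as a fold, 15.5 to 18.2 CPM against 5.88 to 6.65 CPM in WT.

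Upstream sequence is shown for NAC032, which rose, and NAC019, which fell, because both hold ACGTG, the core of the element through which abscisic acid acts on many of its target genes. Matches on either strand (ACGTG or its complement CACGT) are in capitals, NAC032 on the forward strand at chr1:29099589-29099838 and NAC019 on the reverse strand at chr1:19698483-19698732 (TAIR10.1, from RefSeq):
NAC032 promoter: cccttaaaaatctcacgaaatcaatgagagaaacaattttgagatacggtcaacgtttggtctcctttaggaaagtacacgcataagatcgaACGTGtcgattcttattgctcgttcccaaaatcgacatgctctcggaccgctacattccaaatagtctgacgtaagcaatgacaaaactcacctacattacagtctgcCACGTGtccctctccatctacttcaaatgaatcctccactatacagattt
NAC019 promoter: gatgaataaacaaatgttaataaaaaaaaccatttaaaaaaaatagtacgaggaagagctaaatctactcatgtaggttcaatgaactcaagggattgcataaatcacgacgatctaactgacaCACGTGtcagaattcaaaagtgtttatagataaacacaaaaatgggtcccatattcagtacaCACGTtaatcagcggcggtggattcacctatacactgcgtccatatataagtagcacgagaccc
In each sequence a match on 1 strand overlaps a match on the other, which gives the palindrome CACGTG. The core occurred in 21 of 64 tested NAC promoters (32.8%) and in 27.1% of all 22086. GCCGCC, the GCC box that ERF factors such as HRE1 are known to bind, occurred in 3 of 64 NAC promoters (4.69%) and in 2.68% of all. It occurred in 0 of 10 promoters of NAC genes higher in both libraries labelled HRE1β OX and AtRH17 OX. For those lower in both it was 0 of 2, and these sets are too small to read against such shares.

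Among the NAC genes listed for stress and senescence and taken by the naming rule, 13 of 13 were tested. The rows named NAC3 are among these. They were not assigned to a locus and were not called against WT. In AtRH17 OX 6 were higher and 2 lower. In libraries labelled HRE1β OX 5 were higher and 1 lower, and in HRE1α OX 1 was higher and 1 lower. The medians were 0.36, 0.11 and -0.04 on the log2 scale. Over all genes 15.3% were higher and 15.5% lower in AtRH17 OX, so that 2 of 13 lower is at the background. These shares were 11.2% and 11.6% in libraries labelled HRE1β OX and 1.57% and 1.80% in HRE1α OX. No test of the list was made. The 4 ATAF genes above are part of this list. RD26, called higher in all lines, and NAP, called lower in libraries labelled HRE1β OX, are also listed but not counted here. Their symbols fall outside the naming rule, and they are read apart below.

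NAC6 fell in every line. It had 27.7 and 25.4 CPM in AtRH17 OX, 41.2 and 36.4 CPM in libraries labelled HRE1β OX, 47.0 and 47.1 CPM in HRE1α OX, and 59.2 and 60.3 CPM in WT. The groups formed 4 steps with no overlap between any pair. Against WT the log2 fold change was -1.17 ± 0.101 in AtRH17 OX (edgeR adjusted p = 2.01e-10), -0.62 ± 0.0989 in libraries labelled HRE1β OX (1.58e-05) and -0.34 ± 0.0983 in HRE1α OX (0.0455). The call in HRE1α OX was lost when any of its 4 libraries was left out (adjusted p up to 0.307), with upper-quartile factors or with only these 2 groups fitted, and the others were kept in all 11 alternatives that test the counts. AtRH17 OX also lay below libraries labelled HRE1β OX (-0.54 ± 0.102, edgeR adjusted p = 0.00044), while libraries labelled HRE1β OX against HRE1α OX gave -0.28 ± 0.0995 (0.0515).

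NAC019 (AT1G52890, chromosome 1, 19696923 to 19698482), which acts with its close relatives in abscisic acid and jasmonate responses, was nearly missing from AtRH17 OX. It had 0 and 1 counts in AtRH17 OX, 11 and 35 in HRE1α OX, 11 and 19 in libraries labelled HRE1β OX, and 24 and 28 in WT. Both AtRH17 OX libraries lay below all others, and HRE1α OX overlapped with WT. The summed, depth-adjusted counts were 48.0-fold lower in AtRH17 OX than in WT, with a 95% counting interval of 8.24 to 1930, and 27.4-fold lower than in libraries labelled HRE1β OX (4.56 to 1120). The edgeR adjusted p against WT was 0.000436, and the call was kept in all 10 alternatives that test its counts. The interval covers counting error only.

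NAC042 (also JUB1, AT2G43000), which prolongs leaf life and dampens hydrogen peroxide, rose in AtRH17 OX. It had 38 and 31 counts in AtRH17 OX, 14 and 18 in HRE1α OX, 1 and 9 in libraries labelled HRE1β OX, and 9 and 5 in WT. AtRH17 OX lay above every other library. Its log2 fold change was 2.39 ± 0.733 against WT (edgeR adjusted p = 0.0124) and 2.91 ± 0.767 against libraries labelled HRE1β OX (0.00965). The call against WT was lost without either AtRH17 OX library or without WT replicate 2 (adjusted p up to 0.106), and that against libraries labelled HRE1β OX without either AtRH17 OX library or without replicate 1 of the other group (up to 0.167). NAC042 shares 107 bases with AT2G42990 on the opposite strand, which had 6 to 31 counts, so the source of its few reads is uncertain.

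Among the genes taken by the naming rule, NAC083 was the only one called higher in HRE1α OX. It had 104 and 94.8 CPM in HRE1α OX, 67.4 and 71.8 CPM in libraries labelled HRE1β OX, 56.0 and 61.4 CPM in AtRH17 OX, and 58.0 and 71.1 CPM in WT. Both HRE1α OX libraries lay above the other 6, and the other groups overlapped with WT. The log2 fold change was 0.62 ± 0.0967 (edgeR adjusted p = 9.98e-05), and NAC083 was also lower than in HRE1α OX in libraries labelled HRE1β OX (-0.51 ± 0.0964) and in AtRH17 OX (-0.76 ± 0.0973). NAC046, which promotes chlorophyll breakdown in senescing leaves, rose by 0.68 ± 0.185 both in libraries labelled HRE1β OX and in AtRH17 OX, the second of which was lost without AtRH17 OX replicate 2 (adjusted p up to 0.174).

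**Figure D4:**
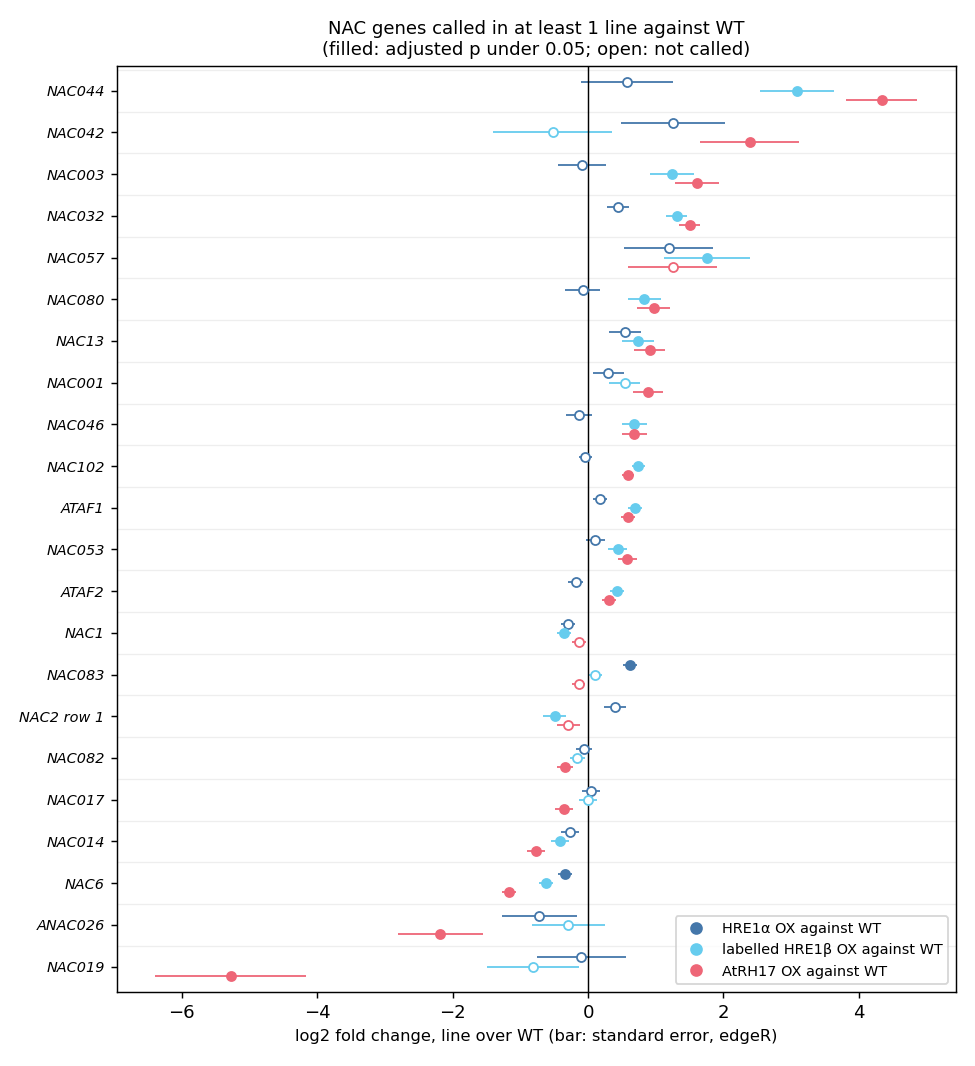
Log2 fold change against WT (horizontal axis, bars are SE) of the 22 NAC genes called in at least 1 line, ordered by their value in AtRH17 OX, with 1 colour a line; filled points have an adjusted p under 0.05. For NAC044, NAC003, NAC032 and the ATAF genes the filled points of libraries labelled HRE1β OX and AtRH17 OX lie right of 0 beside an open point of HRE1α OX; NAC6 is filled and left of 0 in all lines.

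NAC6 is also a target of the microRNA miR164, which guides the cleavage of a small set of NAC transcripts. The mature sequences (from RefSeq, seed in capitals) and the sites found in the coding sequence of NAC genes (capitals pair with miR164a) are shown because NAC6 and NAC080, which moved in opposite directions, both hold one. The group was added after the values were seen.
ath-miR164a: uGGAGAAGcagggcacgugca
ath-miR164c-5p: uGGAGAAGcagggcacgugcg
NAC080 site: UuuACGUGCCCUGCUUCUCCA
NAC100 site: UcuACGUGCCCUGCUUCUCCA
NAC1 site: aGCACGUaCCCUGCUUCUCCA
CUC1 and CUC2 site: aGCACGUGuCCUGuUUCUCCA
NAC6 site: cuCACGUGaCCUGCUUCUCCg
miR164b-5p has the sequence of miR164a. The sites of NAC080 (chr5:2436958-2436978), NAC1 (chr1:20947142-20947162) and NAC100 (chr5:24701687-24701707) have 2 mismatches, those of CUC1 (chr3:5111137-5111157) and CUC2 (chr5:21902301-21902321) have 3, and that of NAC6 (chr5:15858797-15858817) has 4, all in the last exon. The best match in every other NAC gene with a locus had at least 7 mismatches. Mature miR164 was not measured here.

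The 6 genes with a site did not move together. NAC080 (AT5G07680) had 6.65 and 5.02 CPM in libraries labelled HRE1β OX, 5.85 and 7.04 CPM in AtRH17 OX, 3.48 and 2.74 CPM in HRE1α OX, and 2.95 and 3.59 CPM in WT. It was above WT in every library of the first 2 lines, by 0.83 ± 0.246 (edgeR adjusted p = 0.0129) and 0.97 ± 0.246 (0.00268), and the first of these calls was lost without replicate 1 of that line or WT replicate 1 (adjusted p up to 0.199). NAC1, which promotes lateral roots in response to auxin, had 38.4 and 37.2 CPM in libraries labelled HRE1β OX, against 51.6 and 45.2 CPM in WT (-0.36 ± 0.104, edgeR adjusted p = 0.0118). That call was lost without either library labelled HRE1β OX or WT replicate 1 (adjusted p up to 0.111), and NAC1 shares 809 bases with AT1G08087 on the opposite strand. CUC1 and CUC2, which separate organs at the shoot meristem, were not called against WT, with 0.370 to 1.72 CPM and 0.244 to 1.32 CPM over the 8 libraries. NAC100 was not called against WT but was higher in AtRH17 OX than in HRE1α OX (0.78 ± 0.278, edgeR adjusted p = 0.0365), a call lost when any of these libraries was left out (adjusted p up to 0.289) or DESeq2 was used.

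**Figure D5:**
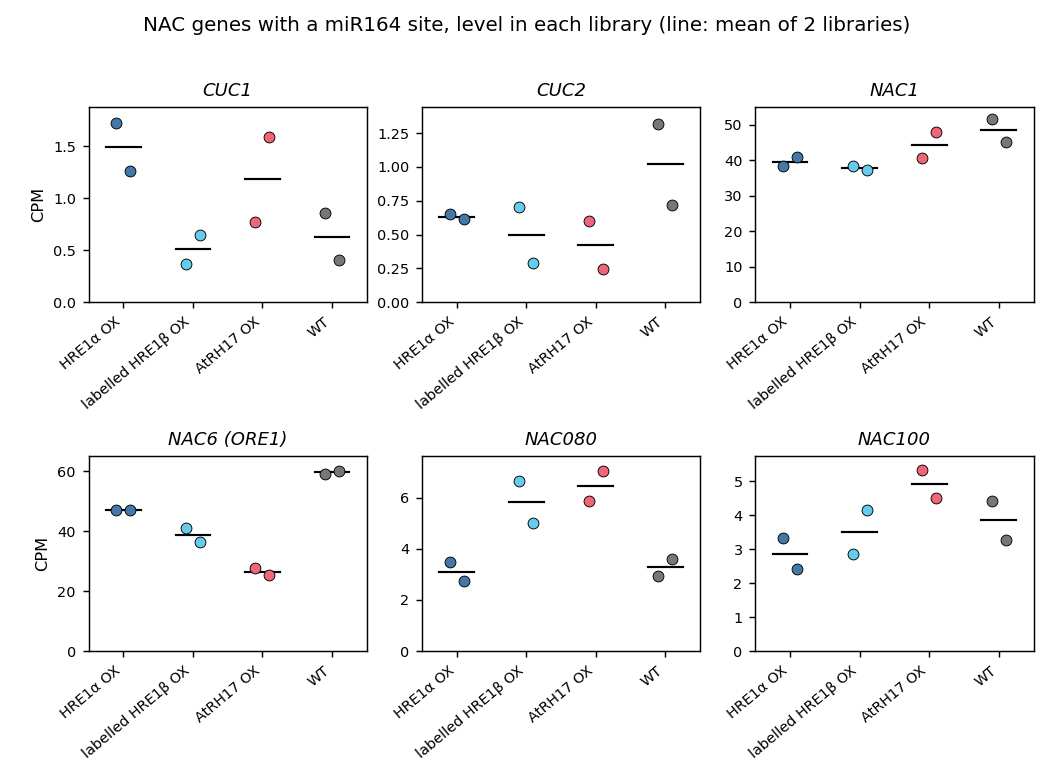
CPM per library (points) and group mean (line) of the 6 NAC genes with a miR164 site in HRE1α OX, libraries labelled HRE1β OX, AtRH17 OX and WT, each axis from 0. NAC6 falls over the lines, NAC080 lies higher in libraries labelled HRE1β OX and AtRH17 OX (5.02 to 7.04 CPM) than in WT (2.95 and 3.59 CPM), and CUC1 and CUC2 stay under 2 CPM.

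The 12 membrane-tethered NAC genes taken by the naming rule were all tested, and those under other symbols are not counted here. The rows named NAC2, which were not assigned to a locus, are not counted either. In AtRH17 OX 2 were higher and 2 lower, in libraries labelled HRE1β OX 2 were higher and 1 lower, and none was called in HRE1α OX by edgeR or DESeq2 (3 with an unadjusted edgeR p under 0.05). These counts are close to the shares over all genes, 15.3% and 15.5% in AtRH17 OX and 11.2% and 11.6% in libraries labelled HRE1β OX. In HRE1α OX these shares were 1.57% and 1.80%, and 12 genes are too few to read no call against them. NAC13 (AT1G32870), which carries stress signals from mitochondria to the nucleus, had 5.18 and 6.71 CPM in libraries labelled HRE1β OX, 7.15 and 6.23 CPM in AtRH17 OX, 5.84 and 4.58 CPM in HRE1α OX, and 3.38 and 3.73 CPM in WT. All lines lay above WT, and the rise was called in libraries labelled HRE1β OX (0.74 ± 0.231) and in AtRH17 OX (0.91 ± 0.231) but not in HRE1α OX (0.55 ± 0.234, edgeR adjusted p = 0.254). The first of these calls was lost without replicate 2 of libraries labelled HRE1β OX or WT replicate 1 (adjusted p up to 0.226). NAC053, which drives the proteasome stress response, rose by 0.44 ± 0.143 in libraries labelled HRE1β OX, a call lost when any of its 4 libraries was left out (adjusted p up to 0.129), and by 0.58 ± 0.143 in AtRH17 OX, lost without AtRH17 OX replicate 1 (up to 0.0512).

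NAC014 was lower in AtRH17 OX and in libraries labelled HRE1β OX, and NAC017 narrowly passed the test in AtRH17 OX. NAC014 had 12.1 and 13.8 CPM in AtRH17 OX, 17.1 and 16.0 CPM in libraries labelled HRE1β OX, and 24.0 and 20.2 CPM in WT. It was lower by -0.77 ± 0.136 in AtRH17 OX and by -0.42 ± 0.133 in libraries labelled HRE1β OX, and the second call was lost without either of these libraries or WT replicate 1 (adjusted p up to 0.199). NAC017, which shares the mitochondrial role of NAC13, had 16.2 and 20.4 CPM in AtRH17 OX against 20.6 and 25.9 CPM in WT (-0.35 ± 0.134, edgeR adjusted p = 0.0472), a call lost without AtRH17 OX replicate 1 or WT replicate 2 (up to 0.461) and also with DESeq2, with upper-quartile factors and with only these 2 groups fitted.

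The mitochondrial dysfunction regulon, the genes that NAC13 and NAC017 are known to bind, was read from a list of 12, of which 11 were in the tables and 10 were tested, NAC13 itself included. In libraries labelled HRE1β OX 6 of 10 were higher and 0 lower (median log2 1.53), in AtRH17 OX 7 were higher and 0 lower (1.25), and in HRE1α OX none was called by edgeR or DESeq2 (-0.22, 3 with an unadjusted edgeR p under 0.05). Over all genes 11.2% were higher and 11.6% lower in libraries labelled HRE1β OX, and 15.3% and 15.5% in AtRH17 OX. In HRE1α OX these shares were 1.57% and 1.80%, and 10 genes are too few to read no call against them. No test of the list was made. AOX1A, the alternative oxidase of the respiratory chain, rose by 1.77 ± 0.232 in libraries labelled HRE1β OX and 1.71 ± 0.233 in AtRH17 OX. UGT74E2, a glucosyltransferase of an auxin form, rose by 4.59 ± 0.485 and 3.63 ± 0.496. The list was chosen with earlier results of these data known.

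Of the remaining NAC genes, NAC003 (AT1G02220, chromosome 1, 428650 to 430720) had 4.14 and 3.27 CPM in libraries labelled HRE1β OX, 5.35 and 4.19 CPM in AtRH17 OX, 1.45 and 1.48 CPM in HRE1α OX, and 1.07 and 2.05 CPM in WT. The first 2 lines lay above all HRE1α OX and WT libraries, by 1.24 ± 0.324 (edgeR adjusted p = 0.00482) and 1.61 ± 0.322 (0.000233) against WT. The first call was lost without replicate 1 of that line or WT replicate 1 (adjusted p up to 0.087). NAC001 rose in AtRH17 OX by 0.88 ± 0.223, and NAC082, a factor of the nucleolar stress response, was lower there (-0.34 ± 0.114), a call lost without either AtRH17 OX library or WT replicate 1 (adjusted p up to 0.136), with upper-quartile factors or with only these 2 groups fitted. Of 2 rows named NAC2, 1 was lower in libraries labelled HRE1β OX (-0.49 ± 0.168), lost without either of its libraries or WT replicate 2 (adjusted p up to 0.344), with upper-quartile factors, with DESeq2 or with only these 2 groups fitted. The tables hold 2 rows each for the names NAC2 and NAC3, and these 4 rows were not assigned to a locus.

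Of 13 NAC genes for xylem and secondary walls taken by the naming rule, 10 were tested. These are too few to read a low count against the 15.3% and 15.5% of all genes called higher and lower in AtRH17 OX. The shares were smaller in the other lines. The only call against WT was ANAC026 (also VND5, AT1G62700), a vessel regulator. It had 9 and 8 counts in AtRH17 OX, 25 and 23 in HRE1α OX, 38 and 31 in libraries labelled HRE1β OX, and 16 and 69 in WT. AtRH17 OX lay below all other libraries, but the WT libraries lay further apart than the groups. The log2 fold change of -2.18 ± 0.627 (edgeR adjusted p = 0.00798) was lost without either AtRH17 OX library or without WT replicate 2 (adjusted p up to 0.498). VND7, the main switch for vessels, had 0.887 and 0.875 CPM in libraries labelled HRE1β OX, 0.564 and 0.936 CPM in AtRH17 OX, and 0.320 and 0.342 CPM in WT, and was not called (edgeR adjusted p = 0.158 and 0.233 in these lines). Xylem markers summed to 90.3 to 100 CPM in libraries labelled HRE1β OX, 77.2 to 81.4 CPM in AtRH17 OX, 70.8 to 72.3 CPM in HRE1α OX, and 65.1 to 69.3 CPM in WT, with 0 of 6 markers at 0 in any library, and the part of this difference in the values of xylem NAC genes was not tested.

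Of 4 phloem NAC genes, 1 was called against WT, NAC057 in libraries labelled HRE1β OX, where 11.2% of all genes were higher and 11.6% lower. These 4 are too few to read against such shares. NAC057 had 31 and 31 counts in libraries labelled HRE1β OX, 23 and 17 in AtRH17 OX, 15 and 24 in HRE1α OX, and 10 and 8 in WT. All lines lay above WT, and the rise in libraries labelled HRE1β OX (1.76 ± 0.637, edgeR adjusted p = 0.0441) was lost when any of its 4 libraries was left out (adjusted p up to 0.179). NAC086, which with NAC045 clears the nucleus from sieve elements, had 10 and 13 counts in AtRH17 OX, against 1 and 0 in HRE1α OX, a depth-adjusted ratio of AtRH17 OX to HRE1α OX of 23.4 (95% counting interval 3.80 to 965, edgeR adjusted p = 0.0188). That call was lost without either HRE1α OX library or AtRH17 OX replicate 2 (adjusted p up to 0.173). NAC045 shares 1096 bases with AT3G03190 on the opposite strand, and the reads of this pair cannot be told apart without strand. The 3 root cap NAC genes SMB, NAC015 (BRN1) and NAC070 (BRN2), which mature and shed cap cells, were not called against WT by edgeR or DESeq2 (1 had an unadjusted edgeR p under 0.05, in libraries labelled HRE1β OX). These 3 are too few to read against the shares of all genes called, at most 15.3% higher and 15.5% lower, in AtRH17 OX. NAC070 was higher in libraries labelled HRE1β OX (1.22 ± 0.370) and in AtRH17 OX (1.09 ± 0.373) than in HRE1α OX, and the calls were lost without any of the 4 libraries compared in the first (adjusted p up to 0.214) and without any but AtRH17 OX replicate 2 in the second (up to 0.557).

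The lines were also set against each other, and the first 2 of these comparisons share the HRE1α OX libraries. Between libraries labelled HRE1β OX and HRE1α OX, 9 NAC genes were higher and 2 lower (13.2% and 2.94% of those tested, beside 8.86% and 7.87% of all genes). Past 2-fold as well, 3 were higher and 0 lower (background 2.47% and 0.752%), with 2 lower at an unadjusted edgeR p under 0.05 and 0 by DESeq2. The higher ones were the 4 ATAF genes, NAC044, NAC003, NAC046, NAC070 and NAC080, and the lower ones NAC083 and a row named NAC2. NAC003 was lost without either HRE1α OX library or replicate 1 of the other group, NAC080 without HRE1α OX replicate 2 or replicate 1 of the other group, and NAC046 without HRE1α OX replicate 2 (adjusted p up to 0.0672, 0.183 and 0.0708).

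Between AtRH17 OX and HRE1α OX, 13 were higher and 6 lower (19.1% and 8.82%, beside 13.4% and 12.4%). Of these, 6 and 1 were past 2-fold (background 3.56% and 1.38%). The higher ones were the 4 ATAF genes, NAC001, NAC003, NAC044, NAC046, NAC053, NAC070, NAC080, NAC086 and NAC100. The lower ones were NAC6, NAC014, NAC017, NAC019, NAC083 and a row named NAC2. Of these 19 calls, 8 were kept whichever library was left out. Besides NAC070, NAC086 and NAC100, those lost were ATAF1 without HRE1α OX replicate 1, NAC046 without AtRH17 OX replicate 2, NAC080 without HRE1α OX replicate 2 and the NAC2 row without AtRH17 OX replicate 1 (adjusted p up to 0.0555, 0.0908, 0.0535 and 0.0651). NAC014 was lost without replicate 1 of either group, NAC017 and NAC053 without any but AtRH17 OX replicate 2, and NAC001 without any of the 4 (adjusted p up to 0.0838, 0.342, 0.183 and 0.206). NAC001 and NAC017 were also lost with DESeq2, and NAC001 without a filter.

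Between AtRH17 OX and libraries labelled HRE1β OX, 3 were higher and 3 lower (4.41% each, beside 7.42% and 6.45%), with 2 and 2 past 2-fold (background 0.898% and 0.947%). These were NAC044, NAC042 and NAC097, and NAC6, NAC019 and ANAC026. NAC097 (0.79 ± 0.273, edgeR adjusted p = 0.0494) and ANAC026 (-1.89 ± 0.634, 0.0437) lost their calls when any of the 4 libraries was left out (adjusted p up to 0.425 and 0.22). NAC097 also lost its call with DESeq2, with a replicate block and without organelle genes, and NAC019 lost its call without replicate 2 of libraries labelled HRE1β OX or AtRH17 OX replicate 1 (up to 0.111). For the ATAF genes the difference between these lines was -0.15 to 0.18 on the log2 scale and was not called.

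Against WT, 46 of the 68 tested NAC genes were called in no line. Their log2 fold changes and those of the genes called elsewhere ran from -3.71 to 1.26 without a call in HRE1α OX, from -1.43 to 1.56 in libraries labelled HRE1β OX, and from -1.24 to 1.25 in AtRH17 OX. The lowest of these, NAC086 in HRE1α OX, rests on 1 and 0 counts, against 13 and 4 in WT. A gene without a call is not shown to be unchanged.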

How the data were processed

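Whole-seedling RNA was sequenced by QuantSeq 3′ mRNA-Seq in 8 libraries, 2 for each of 4 groups, and groups were taken from the labels. The authors aligned reads to TAIR10 with Bowtie2 and deposited counts per gene of unique and multiple alignments, made with Bedtools coverage and without normalization. Tool versions and the use of strand are not given in the sources used here, and counts that include multiple alignments can be shared between near-identical genes. The labels also name edgeR.

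From the deposited counts, genes passing filterByExpr (22602) were fitted with TMM factors (0.958 to 1.03) in edgeR 4.0.16 under R 4.3.3, with robust quasi-likelihood tests over all 8 libraries and Benjamini-Hochberg adjustment over all genes tested. A gene is called at an adjusted p under 0.05. The SE was derived from the size of a log2 fold change and its F statistic (size over root F). The study's methods describe quantile normalization with an equal-variance test, which was run as an alternative, as were DESeq2 1.42.0 and upper-quartile factors, other filters, 2-group fits, the removal of organelle genes, a block for replicate number, and the removal of single libraries. The fit was tested on simulated data. Depth was 25657217 to 30606058 counts, at which 3 counts are 0.0972 to 0.122 CPM. Intervals of count ratios are exact, at 95%, and cover counting error only.

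Of 91 NAC rows, 87 were assigned to a TAIR10.1 locus by name. Sequences were read from the RefSeq TAIR10.1 genome. The miR164 site of a gene is the window of its transcript with the fewest mismatches. Values are given per library for genes past 2-fold and the adjusted p against WT, other called genes are named with their fold, and the 3 genes with the highest mean are named with their level. Values given for further genes were chosen after they were seen. The NAC genes and the other lists were chosen with earlier results of these data known. Plots were made in Python 3.11.15 (matplotlib 3.10.9).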

Additional observations from a re-analysis of the deposited data

How the results depend on the processing

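Counts of called NAC genes are given as higher and lower. With quantile normalization and the equal-variance test, 0 and 0 were called at an adjusted p in every comparison, and at an unadjusted p with 2-fold 0 and 0 in HRE1α OX, 1 and 0 in libraries labelled HRE1β OX, and 2 and 1 in AtRH17 OX against WT, 0 and 0 in libraries labelled HRE1β OX and 2 and 0 in AtRH17 OX against HRE1α OX, and 0 and 0 in AtRH17 OX against libraries labelled HRE1β OX. The lower count in HRE1α OX against WT, 1 in the main analysis, was 0 with upper-quartile factors and with only the 2 groups compared, and 2 without a filter and with at least 10 counts in every library. In libraries labelled HRE1β OX against HRE1α OX the lower count was 4 with only the 2 groups compared (2 in the main analysis). AtRH17 OX against libraries labelled HRE1β OX, 3 and 3 in the main analysis, gave 1 and 1 with DESeq2, 1 and 1 with at least 10 counts in every library, 5 lower without a filter and 5 lower with 2 groups. The cause of these shifts was not tested.

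Leaving out 1 library at a time gave 1 to 2 higher and 0 to 3 lower in HRE1α OX, 7 to 9 and 1 to 4 in libraries labelled HRE1β OX, and 10 to 11 and 3 to 9 in AtRH17 OX against WT. Against HRE1α OX it gave 5 to 8 higher in libraries labelled HRE1β OX, and 7 to 10 and 3 to 6 in AtRH17 OX, and between AtRH17 OX and libraries labelled HRE1β OX 0 to 1 and 1 to 2. A group left with 1 library is assumed to vary like the others. Over all alternatives and comparisons, the call or its absence for a NAC gene called anywhere was kept in 1715 cases, lost in 250 and gained in 12, and no call changed direction. The cases kept include those without a call in the main analysis. The cases lost include every call under quantile normalization at an adjusted p, which called none. Depth limits the genes with few counts, since 3 counts are 0.0972 to 0.122 CPM and NAC019, NAC042, NAC057, NAC086 and ANAC026 had at most 69 counts in any library.

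Same-numbered libraries did not deviate together (correlations of -0.00582 to 0.0579), so replicate numbers do not pair the samples. With a replicate block the counts were 1 and 1, 11 and 4, and 12 and 6 against WT, 9 and 3 in libraries labelled HRE1β OX and 14 and 6 in AtRH17 OX against HRE1α OX, and 2 and 4 in AtRH17 OX against libraries labelled HRE1β OX.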

Other observations

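NAC genes that the tables list under symbols outside the naming rule were read apart, 9 in all with 7 tested. RD26 (also NAC072), a dehydration and abscisic acid factor close to NAC019, rose by 0.62 ± 0.102 in HRE1α OX, 1.03 ± 0.102 in libraries labelled HRE1β OX and 1.29 ± 0.102 in AtRH17 OX (edgeR adjusted p = 0.000224, 4.89e-09 and 3.43e-11), beside 0 and 1 counts of NAC019 in AtRH17 OX. NAP, a senescence factor, was lower in libraries labelled HRE1β OX (-0.67 ± 0.170, edgeR adjusted p = 0.0041), and TIP, which is known for its interaction with a viral coat protein, was lower in AtRH17 OX (-0.52 ± 0.109, edgeR adjusted p = 0.0004).

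Genes of senescence, a list of 14 with 13 tested, moved both ways. In libraries labelled HRE1β OX 3 were higher and 3 lower, in AtRH17 OX 3 and 2, and in HRE1α OX 1 and 1. Over all genes the shares were 11.2% and 11.6%, 15.3% and 15.5%, and 1.57% and 1.80% in these lines. No test of the list was made. HAI1 (SAG113), a phosphatase of abscisic acid signalling, rose by 1.75 ± 0.349 in HRE1α OX, 2.88 ± 0.333 in libraries labelled HRE1β OX and 2.79 ± 0.335 in AtRH17 OX, while a row named SEN1 was lower in all lines (-0.39 ± 0.0901, -1.20 ± 0.0917 and -1.20 ± 0.0918). Of 15 genes that build xylem walls, targets of the VND and NST factors among them, 7 were higher in libraries labelled HRE1β OX, 3 in AtRH17 OX and 0 in HRE1α OX (0 also at an unadjusted edgeR p under 0.05 and by DESeq2), and none was lower. The same shares over all genes stand beside these counts, and this list was not tested either. LAC17, a lignin laccase, rose by 0.96 ± 0.229 in libraries labelled HRE1β OX, and XCP1, a vessel protease, by 0.64 ± 0.180 there and by 0.88 ± 0.180 in AtRH17 OX.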
